A study of Homo sapiens with 3 samples.

Results

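The 41 genes described here belong to families of the junctions between cells, chiefly those of epithelia. They comprise 9 claudins, 13 other tight junction and polarity genes, 11 desmosomal genes and 8 genes of cadherins and catenins. They were listed by name, as genes of these junctions, with earlier results of these data known, and each was found on 1 row of a deposited table of 30866 gene symbols. The table gives RNA sequencing of HCC827, an established line of human non-small cell lung cancer cells, which had been transduced with the ClonTracer barcode library and was kept as a polyclonal pool. Vehicle cells had 0.1% DMSO for 4 days. Cells called erlotinib-resistant were kept in erlotinib, a drug that blocks the kinase of the EGF receptor, at 2 µM for 47 days. The dual-resistant population came from the erlotinib-resistant one after 10 days in 2 µM erlotinib with 0.2 µM of the MET kinase inhibitor crizotinib. All 3 populations carry the barcodes and come from 1 line, and the drugs and the length of treatment differ together between them.

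Tight junctions seal the space between epithelial cells. Claudins, occludin and their relatives cross the membrane there and are anchored by ZO proteins, while polarity proteins set the position of the seal between the apical and lateral surfaces. Adherens junctions join neighbouring cells through classical cadherins, whose tails bind catenins, and desmosomes join them through desmogleins and desmocollins, which plakoglobin, plakophilins and desmoplakin link to keratin filaments. In lung epithelium these junctions form the barrier between air and tissue, and a change from E-cadherin to N-cadherin is a textbook marker of a shift from an epithelial towards a mesenchymal state.

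Levels are FPKM, fragments scaled to the length of the transcript and to the mapped fragments of the library, which allows genes to be set against each other per length. There was 1 library per population, so no value has an error, no difference has a test, and every comparison is between 2 libraries. Differences are given as log2 of FPKM + 1, and a gene is called higher or lower at a difference of 1 or more (2-fold on that scale), which understates the differences of low genes. Of the 41 genes, 35 reached 1 FPKM in at least 1 library and were compared. The other 6 (CLDN10, CLDN18, DSG3, PKP1, CDH11 and CDH13) lay between 0 and 0.0825 FPKM in every library. CLDN2 and CDH2 passed through the dual-resistant library alone and DSC3 through the vehicle library alone, so the filter fixed the direction of those 3. The rows of CLDN2, CLDN7, CLDN12, MARVELD3, CGNL1, F11R, CRB3, LLGL2 and CTNND1 each overlap 1 other row that reached 1 FPKM in at least 1 library, and without known strandedness their values are uncertain by the fragments that fall in the overlap. By an estimate from single-exon genes, 1 FPKM over a length of 1 kb corresponds to roughly 68.6 fragments for vehicle, 47.4 for erlotinib-resistant and 43.1 for dual-resistant cells.

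The epithelial label of the line was checked on 7 markers (EPCAM, KRT7, KRT8, KRT18, KRT19, MUC1 and CDH1, the last also one of the 41), which all stood above 1 FPKM in every library and summed to 5159, 5236 and 2302 FPKM in the vehicle, erlotinib-resistant and dual-resistant libraries, the order used for every group of 3 values below. Of 10 fibroblast markers, 1, 1 and 3 reached 1 FPKM, with sums of 3.98, 2.60 and 8.29 FPKM. The fibroblast genes PDGFRA and POSTN were listed at 0 in all 3 libraries, DCN and COL1A2 stayed at or under 0.0215 FPKM, and FAP and THY1 at or under 0.0778 FPKM. The other fibroblast markers were highest in the dual-resistant library. COL1A1 stood at 3.84, 2.48 and 5.38 FPKM, LUM at 0.0291, 0.0725 and 1.52, PDGFRB at 0, 0 and 1.01, and COL3A1 at 0.00253, 0.00643 and 0.316. LUM and PDGFRB passed the filter through that library alone, which fixed their direction. Endothelial markers summed to 1.39, 0.227 and 0.290 FPKM and blood cell markers to 4.20, 0.774 and 1.08 FPKM.

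The large difference in this gene set lay between the dual-resistant and the erlotinib-resistant libraries. In that comparison 16 of the 35 genes compared were lower and 2 were higher, where 7.22% of all 13385 genes compared were lower and 10.1% higher. The median of the 35 was -0.83 and that of all genes -0.03, and without the filter the median of the 41 was -0.61. By at least 4-fold, 5 were lower (CLDN7, TJP3, PPL, CDH1 and CDH3) and 2 higher (CLDN2 and CDH2), against 1.88% and 2.92% of all genes. CLDN2 and CDH2, the 2 higher genes at either limit, passed the filter through the dual-resistant library alone. That fixed their direction, so their count is not a result to set against the share of all genes. In the erlotinib-resistant library against vehicle, 1 of the 35 was higher and none lower, against 3.81% and 6.03% of all genes, and the median was 0.09. In the dual-resistant library against vehicle, 15 were lower and 4 higher, against 10.4% and 11.0% of all genes, with a median of -0.57. The comparisons share libraries, so they are not independent of each other. In populations measured in bulk, fewer cells that express a gene and less of its RNA per cell cannot be told apart.

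**Figure D1:**
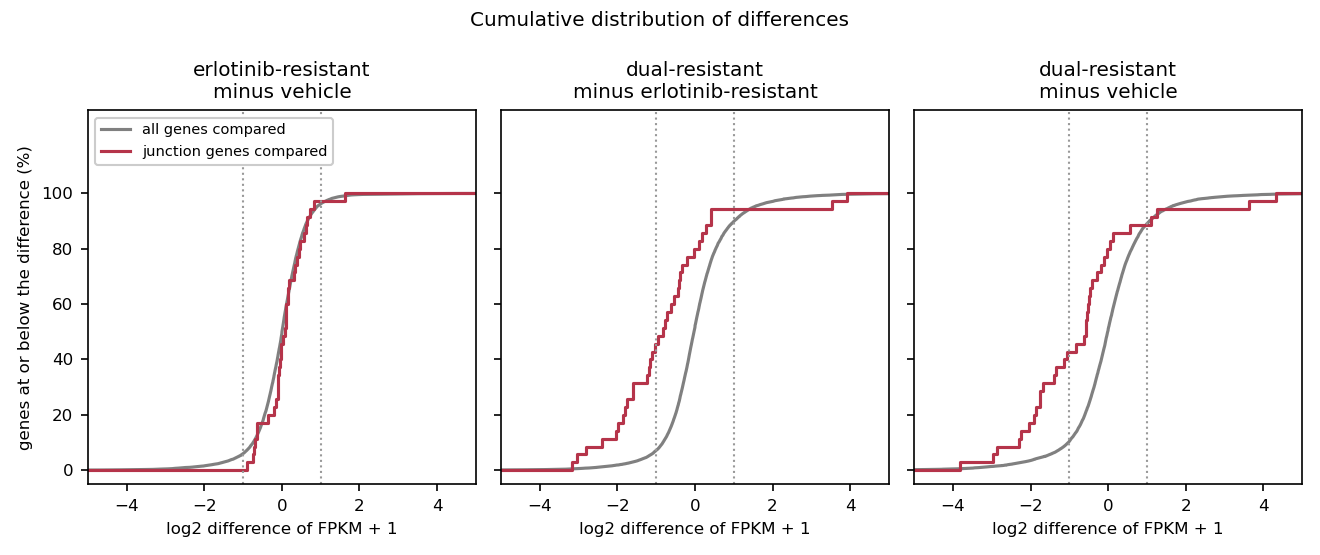
Each panel plots, for 1 comparison, the percentage of genes (vertical axis) at or below a log2 difference of FPKM + 1 (horizontal axis), for all genes compared in grey and the 35 junction genes in red, with dotted lines at the limit of 1 in either direction. In the dual-resistant panels the red curve lies to the left of the grey one over the lower differences, with 16 of 35 and 15 of 35 genes at or beyond the lower limit, and in the erlotinib-resistant panel no gene lies beyond it.

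By group, the genes lower in the dual-resistant than in the erlotinib-resistant library numbered 4 of 7 claudins, 6 of 13 other tight junction and polarity genes, 3 of 9 desmosomal genes and 3 of 6 cadherin and catenin genes among those compared. Of all genes compared, 7.22% were lower. The genes called higher were 1 claudin (CLDN2) and 1 cadherin (CDH2), whose direction the filter fixed. The group medians were -1.10, -0.77, -0.83 and -0.88. Without the filter the claudin median was -0.11 over all 9 genes, since 2 of them were near 0 in every library. All groups held both genes beyond the limit and genes within it, and whether the groups differ from each other could not be tested with 1 library each.

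**Figure D2:**
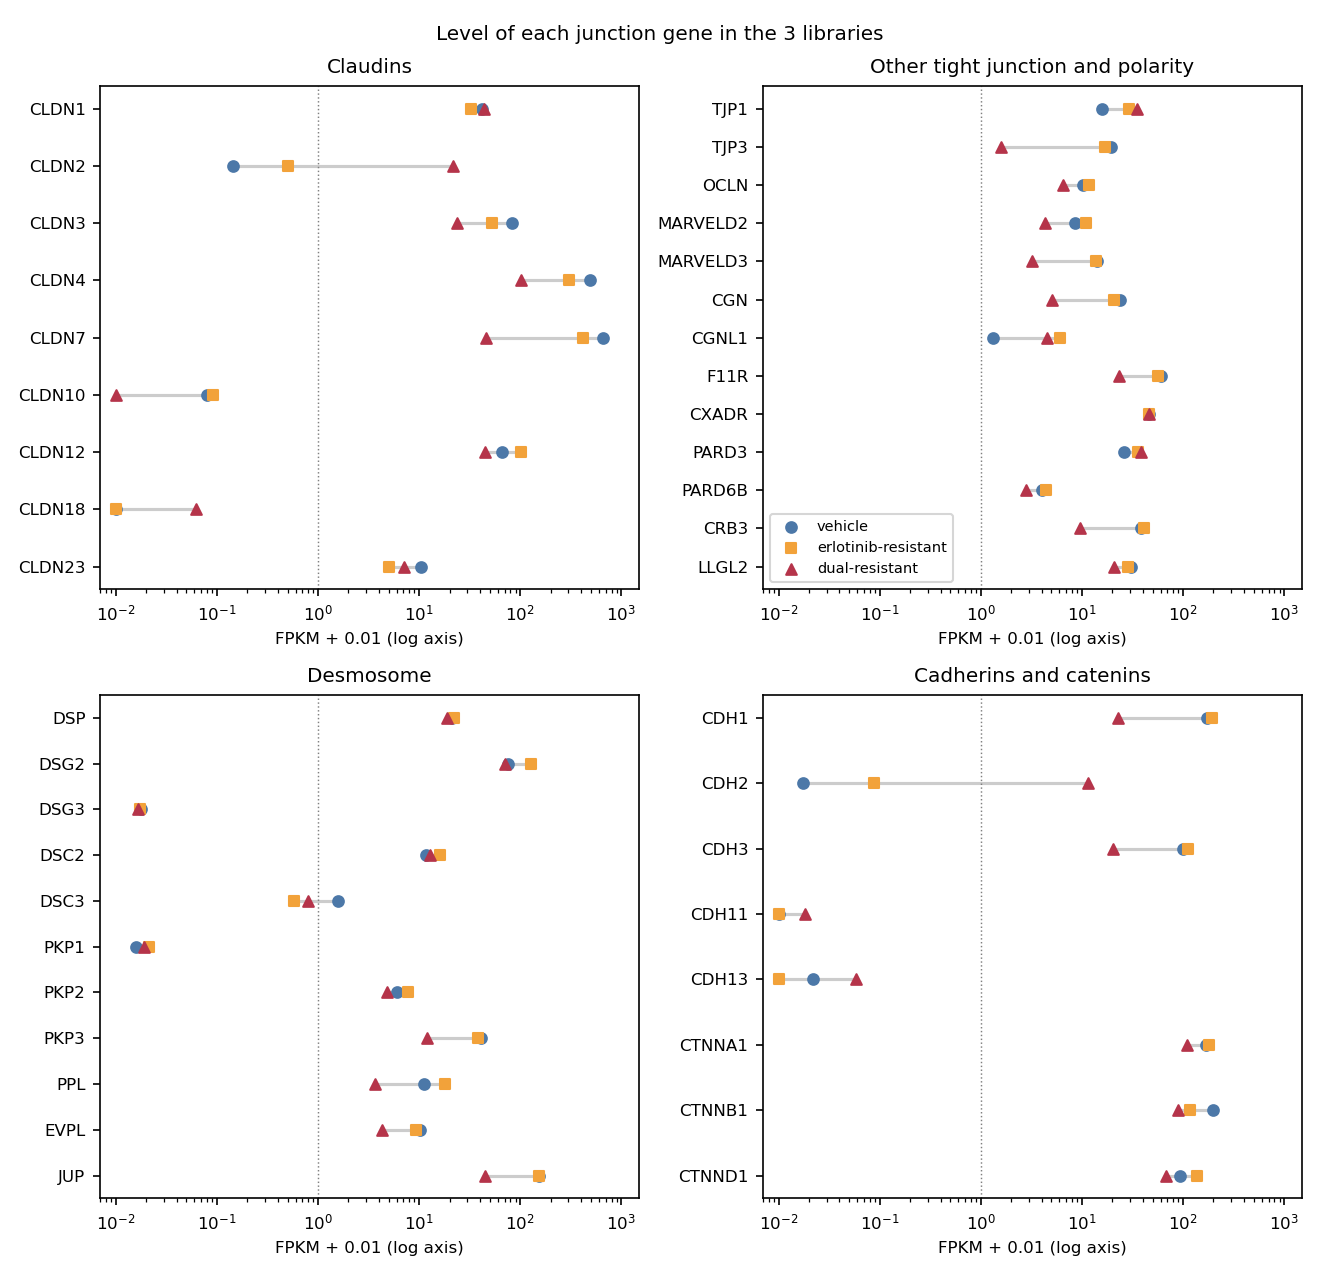
Each row is 1 of the 41 genes and each mark its level in 1 library, as FPKM + 0.01 on a log axis, with a dotted line at 1. Marks of the dual-resistant library (triangles) stand apart on the left for CLDN7, TJP3, CDH1 and CDH3, and apart on the right for CLDN2 and CDH2, while the 3 marks of CXADR coincide.

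Among the claudins, the strand-forming proteins of the tight junction, CLDN7 (Entrez ID 1366, chromosome 17, 7163222 to 7166512, GRCh37) was the most abundant in the vehicle library. It stood at 655, 420 and 45.8 FPKM. The dual-resistant library alone was low, 8.999-fold below the erlotinib-resistant one, and CLDN7 went from percentile 98.9 to percentile 85.9 of the genes compared. The row of C17orf81, which overlaps that of CLDN7, was listed at 0 in the vehicle and erlotinib-resistant libraries and at 36.1 FPKM in the dual-resistant one, and its part in the CLDN7 difference was not tested. CLDN4, a claudin that tightens the barrier (chromosome 7, 73245193 to 73247015), stood at 495, 305 and 101 FPKM. Its neighbour CLDN3, which ends 60592 bases before CLDN4 begins, stood at 82.4, 52.2 and 23.8 FPKM. For both genes each library was lower than the one before it, with the larger step in the dual-resistant library (3.01-fold and 2.15-fold). The call of CLDN3 was lost with a pseudocount of 5 FPKM (-0.99).

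CLDN12 stood at 66.4, 102 and 44.7 FPKM and was 2.26-fold lower in the dual-resistant than in the erlotinib-resistant library, but within the limit against vehicle (-0.56). CLDN1, which the skin and airway barriers need, stood at 42.3, 32.7 and 44.0 FPKM, and CLDN23 at 10.4, 5.05 and 7.08 FPKM, both within the limit in every comparison. CLDN2, which forms channels for cations and is found in leaky epithelia (chromosome X, 106143394 to 106174091), went the other way, with 0.136, 0.496 and 21.8 FPKM. The dual-resistant library alone was high, by a log2 difference of 3.93 from the erlotinib-resistant library. CLDN10 and CLDN18, the latter with a lung isoform, did not reach 0.1 FPKM in any library.

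As a family the 9 claudins summed to 1351, 918 and 288 FPKM, so that the sum was 3.19-fold lower in the dual-resistant than in the erlotinib-resistant library. The share of CLDN7 in the sum was 48.4%, 45.8% and 15.9%. CLDN4 kept a like share, at 36.6%, 33.2% and 34.998%. CLDN1 went from 3.56% to 15.3% and CLDN2 from 0.0540% to 7.58% between the erlotinib-resistant and dual-resistant libraries. In the dual-resistant library CLDN7 and CLDN1 stood at a ratio of 1.04, against 15.5 in vehicle, and CLDN4 was the most abundant claudin of the dual-resistant library.

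**Figure D3:**
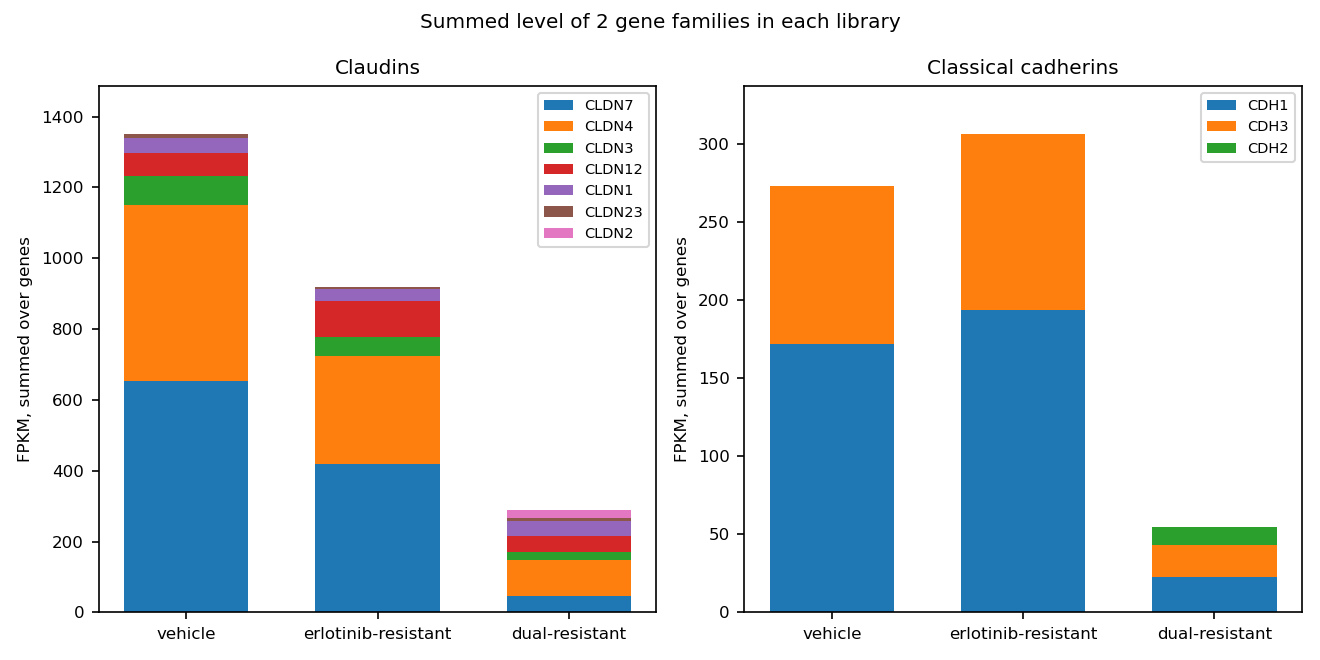
Bars give the FPKM summed over the claudins with at least 1 FPKM in a library (left) and over CDH1, CDH3 and CDH2 (right) in each of the 3 libraries, with 1 colour per gene. The claudin bar of the dual-resistant library is the lowest of the 3 and lacks the large CLDN7 part of the other two, and a CDH2 part is visible in the dual-resistant bar only.

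Of the membrane proteins that accompany claudins, MARVELD3 stood at 14.2, 13.7 and 3.23 FPKM and MARVELD2 (tricellulin, which seals the points where 3 cells meet) at 8.44, 10.9 and 4.33 FPKM. The dual-resistant library was the low one for both, 3.47-fold and 2.24-fold below the erlotinib-resistant library, and the call of MARVELD2 was lost with a pseudocount of 5 FPKM (-0.77). OCLN (occludin), the relative of these genes that lies 49134 bases beyond MARVELD2 on chromosome 5, stood at 10.2, 11.9 and 6.56 FPKM and stayed within the limit. F11R, which encodes the adhesion molecule JAM-A, stood at 60.4, 56.0 and 23.4 FPKM, 2.34-fold lower in the dual-resistant than in the erlotinib-resistant library. CXADR, an adhesion molecule known as the receptor for coxsackieviruses and adenoviruses, was level, at 46.6, 46.2 and 45.5 FPKM.

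The cytoplasmic plaque genes split by paralogue. TJP3 (ZO-3), a scaffold of the epithelial tight junction, stood at 19.2, 17.1 and 1.59 FPKM and was 6.98-fold lower in the dual-resistant than in the erlotinib-resistant library. TJP1 (ZO-1), the scaffold that also occurs in cells without tight junctions, stood at 15.8, 29.01 and 35.3 FPKM and was 2.16-fold higher in the dual-resistant library than in vehicle, a call lost with a pseudocount of 5 FPKM (0.95). The ratio of TJP1 to TJP3 was thus 0.822, 1.70 and 22.2. CGN (cingulin), which links the junction to the actomyosin belt, stood at 23.9, 20.8 and 5.04 FPKM, 3.604-fold lower in the dual-resistant than in the erlotinib-resistant library. Its paralogue CGNL1 (paracingulin) stood at 1.297, 6.08 and 4.46 FPKM. CGNL1 was the 1 gene of the 35 that was called between the erlotinib-resistant and vehicle libraries, 3.08-fold higher, and that call too was lost with the pseudocount of 5 FPKM (0.82).

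Among the polarity genes, CRB3, the Crumbs protein of most epithelia, stood at 38.6, 41.04 and 9.62 FPKM, 3.96-fold lower in the dual-resistant than in the erlotinib-resistant library. The partition-complex genes PARD3, at 25.8, 36.1 and 38.7 FPKM, and PARD6B, at 4.03, 4.44 and 2.76 FPKM, were within the limit in all 3 comparisons. So was LLGL2, a lateral polarity gene, at 30.6, 28.8 and 21.0 FPKM. CRB3 was therefore the 1 of these 4 polarity genes that was called.

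Promoter windows are shown for the genes lower in the dual-resistant than in the erlotinib-resistant library that hold the E-box CACCTG, the hexamer that ZEB and SNAI repressors are known to bind. RefSeq windows on GRCh38.p14, 250 bases before to 50 after a start, were at hand for 25 of the 41 genes (40 windows) and were searched for CACCTG on both strands, so that CAGGTG counts as a match. Capitals mark the matches. The 5 windows are each 1 of the starts listed for their gene.
CRB3, chr19:6464021-6464320, plus strand: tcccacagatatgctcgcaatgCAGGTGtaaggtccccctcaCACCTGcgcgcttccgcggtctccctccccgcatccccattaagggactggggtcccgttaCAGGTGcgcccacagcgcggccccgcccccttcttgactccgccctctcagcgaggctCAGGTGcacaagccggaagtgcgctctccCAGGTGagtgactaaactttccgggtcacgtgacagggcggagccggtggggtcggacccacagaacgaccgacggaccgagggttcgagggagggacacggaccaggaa
CLDN7, chr17:7262429-7262728, minus strand: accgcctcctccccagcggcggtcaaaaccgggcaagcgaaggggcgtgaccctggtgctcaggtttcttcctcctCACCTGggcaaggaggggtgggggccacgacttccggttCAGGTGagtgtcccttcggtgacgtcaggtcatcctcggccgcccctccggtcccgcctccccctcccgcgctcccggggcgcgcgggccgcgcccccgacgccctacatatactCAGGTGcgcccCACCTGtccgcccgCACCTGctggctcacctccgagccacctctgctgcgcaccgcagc
JUP, chr17:41785927-41786226, minus strand: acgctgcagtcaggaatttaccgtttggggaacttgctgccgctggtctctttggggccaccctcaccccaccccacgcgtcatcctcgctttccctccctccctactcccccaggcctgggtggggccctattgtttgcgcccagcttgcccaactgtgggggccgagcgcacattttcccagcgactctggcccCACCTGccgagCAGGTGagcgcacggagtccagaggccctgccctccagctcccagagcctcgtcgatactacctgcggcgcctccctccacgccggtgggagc
TJP3, chr19:3721487-3721786, plus strand: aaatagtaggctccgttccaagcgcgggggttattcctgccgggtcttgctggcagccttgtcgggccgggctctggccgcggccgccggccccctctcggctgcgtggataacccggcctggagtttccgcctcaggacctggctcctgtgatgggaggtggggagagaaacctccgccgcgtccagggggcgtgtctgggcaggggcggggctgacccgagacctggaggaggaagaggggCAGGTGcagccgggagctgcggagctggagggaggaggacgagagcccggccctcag
CLDN3, chr7:73770221-73770520, minus strand: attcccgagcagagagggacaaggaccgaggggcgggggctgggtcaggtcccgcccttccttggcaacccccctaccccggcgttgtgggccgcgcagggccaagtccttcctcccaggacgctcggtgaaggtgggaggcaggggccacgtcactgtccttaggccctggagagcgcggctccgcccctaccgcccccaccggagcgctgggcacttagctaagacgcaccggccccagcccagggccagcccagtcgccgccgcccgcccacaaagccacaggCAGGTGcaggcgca

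The windows of CRB3 and CLDN7 each held 5 matches, and 5 or more were found in 33 of 35116 windows of all genes (0.0940%). Windows with 2 or more matches numbered 3 of 12 for the lower genes and 3 of 18 for the genes within the limit (OCLN, DSP and DSG2). In all windows that share was 3.49%. The matches of CRB3 began at 228, 208, 147, 89 and 60 bases before the start. Those of CLDN7 began at 174, 135, 20 and 9 bases before the start and 5 bases after it. The JUP window held 2 matches and those of TJP3 and CLDN3 held 1 each. The other windows listed for CLDN7, JUP and TJP3 held none. Windows were at hand for 9 of the 16 lower genes, and MARVELD3, F11R, PKP3, PPL, CDH1, CDH3 and CTNND1 were not analysed here. Among these windows, 5 of 12 of the lower genes held a match, as did 6 of 18 of the genes within the limit, none of 4 of the 2 higher genes (CLDN2 and CDH2), and 7231 of 35116 for all genes (20.6%). The windows of CLDN4, CLDN12, MARVELD2 and CGN, also lower, held none. AACNGGTT, a form of the site that grainyhead-like factors bind, was searched on both strands, so that AACCNGTT counts as a match. It was found in 1 of the 40 windows, that of CGN, and in 1.73% of all windows. A match here is a description of the letters and shows no binding.

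Of the desmosomal genes, the cadherins that were compared stayed within the limit in each comparison. DSG2, the desmoglein of simple epithelia (chromosome 18, 29078027 to 29128814, GRCh37), stood at 76.5, 127 and 71.0 FPKM, highest in the erlotinib-resistant library. Its difference between the dual-resistant and the erlotinib-resistant library was -0.83, which is also the median of the 35 genes compared. Its partner DSC2, a desmocollin, stood at 11.6, 16.1 and 12.7 FPKM in the same order. DSC3, the desmocollin of basal and stratified layers, stood at 1.58, 0.569 and 0.778 FPKM, and DSG3, a desmoglein of stratified epithelia, stayed under 0.01 FPKM.

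These genes lie in 1 cluster on chromosome 18, in the order DSC3, DSC2, DSC1, DSG1, DSG4, DSG3 and DSG2 from 28570052 to 29128814. DSC1, DSG1 and DSG4 are not in the set of 41 and stayed between 0 and 0.189 FPKM. DSC2 and DSG2, separated by 4 genes near 0, were thus the only genes of the cluster above 2 FPKM in any library, in all 3 of them. DSG2 made up 85.3%, 88.4% and 84.1% of the summed FPKM of DSG2, DSG3, DSC2 and DSC3.

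**Figure D4:**
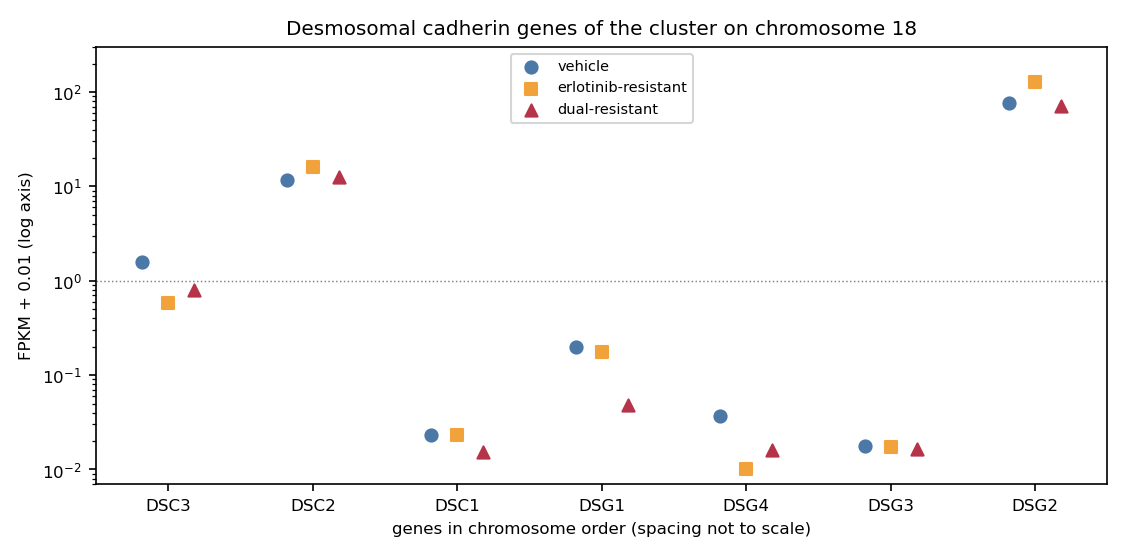
Levels of the 7 desmosomal cadherin genes, in chromosome order along the horizontal axis, as FPKM + 0.01 on a log vertical axis with 1 mark per library and a dotted line at 1. DSC2 and DSG2 stand well above the line in all 3 libraries, DSC3 lies on either side of it and the others stay below it.

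Of the plaque genes that connect these cadherins to keratin, JUP and PKP3 were lower in the dual-resistant library. JUP (plakoglobin, shared with adherens junctions) stood at 154, 152 and 44.6 FPKM, 3.34-fold lower in the dual-resistant than in the erlotinib-resistant library. The row given for JUP spans 39679869 to 39942964 on chromosome 17 and overlaps 10 other symbols, 5 of them with at least 1 FPKM, among them the keratin gene KRT19. KRT19 stood at 1175, 1261 and 752 FPKM, so the JUP value is uncertain where fragments could be assigned to either row. PKP3, the plakophilin of most epithelia, stood at 40.8, 38.3 and 12.1 FPKM, 3.01-fold lower in that comparison. PKP2, the plakophilin also known from heart muscle, stood at 6.03, 7.79 and 4.78 FPKM and was within the limit, and PKP1, of stratified epithelia, was near 0.

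The plakins, large linkers at the desmosome and the cell cortex, were lower in the dual-resistant library to unlike extents. PPL (periplakin) stood at 11.2, 18.2 and 3.65 FPKM and was 4.12-fold lower in the dual-resistant than in the erlotinib-resistant library. EVPL (envoplakin), the partner of periplakin, stood at 10.2, 9.34 and 4.33 FPKM. Its difference of -0.96 in that comparison missed the limit, but passed it with a pseudocount of 0.1 FPKM (-1.09). Against vehicle it passed the limit at -1.07, but not with a pseudocount of 5 FPKM (-0.70). DSP (desmoplakin), the main linker to keratin, was level at 21.4, 21.9 and 18.8 FPKM.

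**Figure D5:**
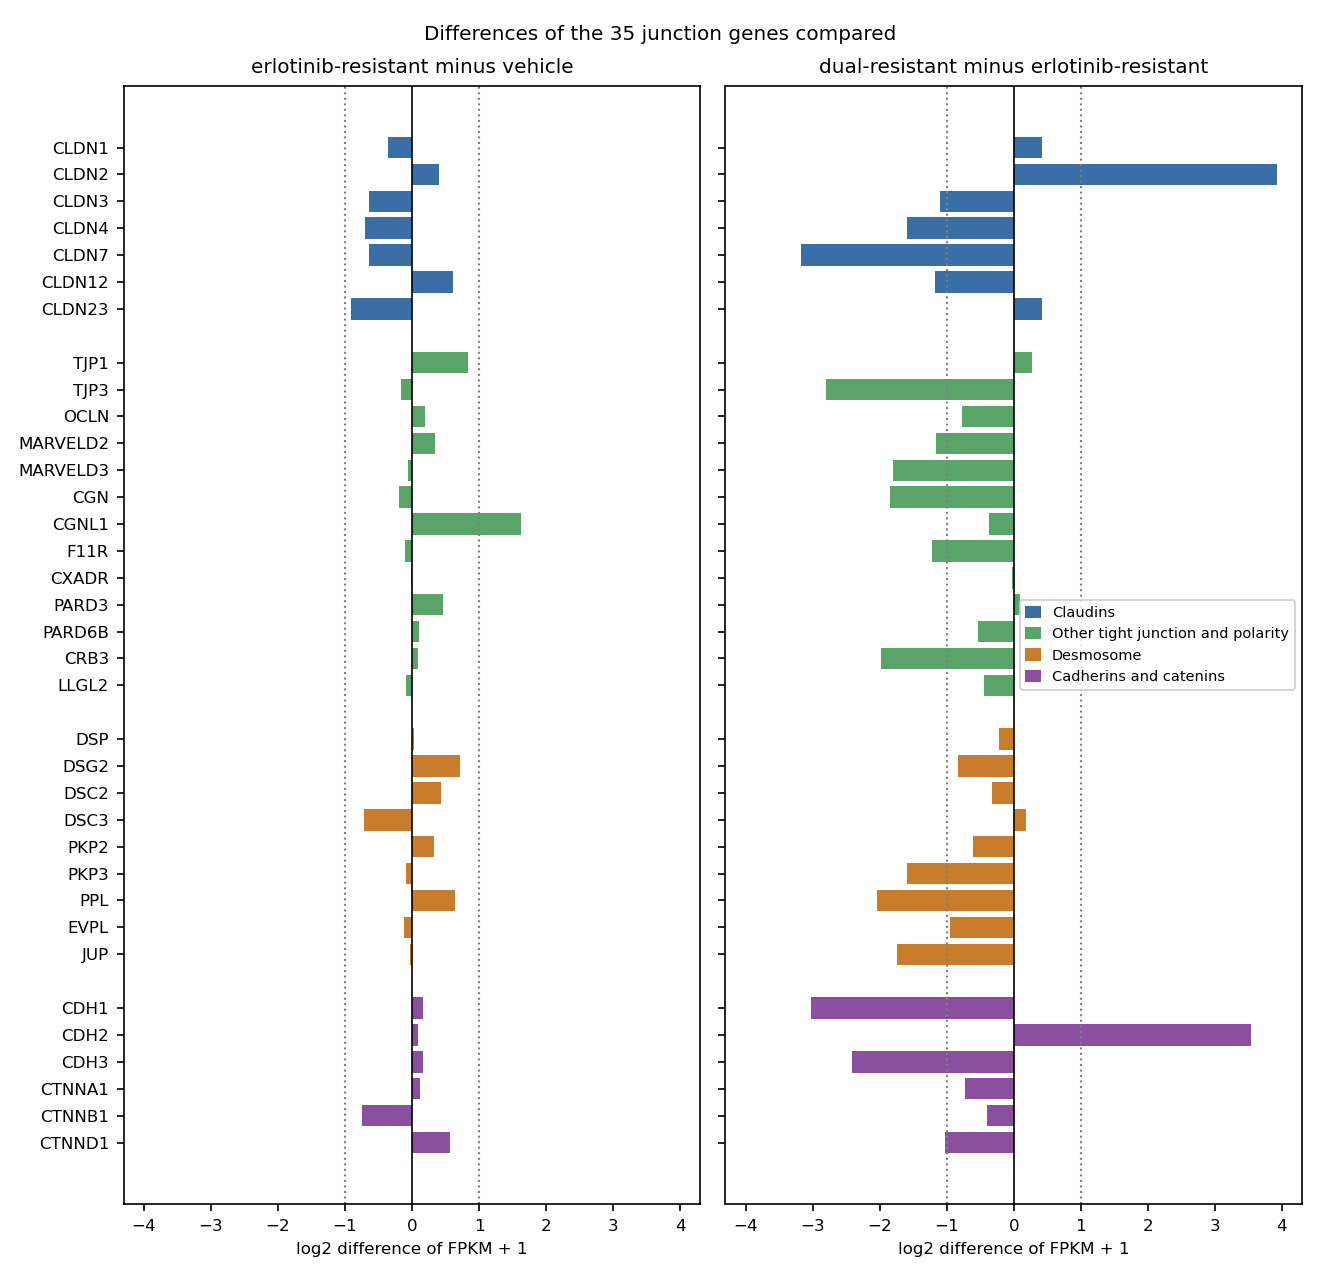
Bars give the log2 difference of FPKM + 1 for each of the 35 genes compared, coloured by group, for the erlotinib-resistant minus the vehicle library (left) and the dual-resistant minus the erlotinib-resistant library (right), with dotted lines at the limit of 1. On the left CGNL1 alone passes the limit, and on the right 16 bars pass the lower limit and CLDN2 and CDH2 the upper one.

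Among the cadherins, CDH1 (E-cadherin, the classical cadherin of epithelia, Entrez ID 999) lies on chromosome 16 from 68771195 to 68869444 and stood at 172, 194 and 22.8 FPKM. The vehicle and erlotinib-resistant libraries differed by 0.17 on the log2 scale and the dual-resistant library was low, 8.18-fold below the erlotinib-resistant one. CDH3 (P-cadherin, of basal and placental epithelium), which ends 38237 bases before CDH1 begins, stood at 101, 113 and 20.5 FPKM and was 5.31-fold lower. CDH2 (N-cadherin, of nerve and mesenchymal cells, on chromosome 18 from 25530930 to 25757445) was measured at 0.00759, 0.0776 and 11.5 FPKM. The first of these values stood on about 2.25 fragments and the second on about 15.9, so only the dual-resistant level is well measured, and the log2 difference from the erlotinib-resistant library was 3.53.

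CDH1, CDH2 and CDH3 together summed to 273, 307 and 54.8 FPKM. CDH2 made up 21.0% of that sum in the dual-resistant library, where CDH1 still made up 41.7% and CDH3 37.3%. In that library CDH1 stood at 1.99 times the level of CDH2, so E-cadherin RNA was the more abundant. CDH11 and CDH13, other cadherins known from mesenchymal or endothelial cells, stayed at or under 0.0489 FPKM in every library.

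Genes around the CDH3 and CDH1 pair were also looked at, a window chosen after the values were seen. Of 38 other genes compared within 1 Mb on either side, 9 were lower and 1 higher in the dual-resistant than in the erlotinib-resistant library, with a median of -0.67, against 7.22% lower and 10.1% higher of all genes. Against vehicle, 4 of the 38 were lower, near the 10.4% of all genes, and none was higher, against 11.0% of all genes. The median there was -0.31. The 9 lower neighbours include the epithelial splicing regulator ESRP2. Around CLDN3 and CLDN4, 5 of 29 genes were lower and 2 higher in the dual-resistant than in the erlotinib-resistant library (median -0.20), and around CLDN7 6 of 65 were lower and 10 higher (median 0.20). The part of chromosomal position in these differences was not tested.

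The 3 catenins of this group, which tie cadherins to actin and stabilise them, differed less than CDH1, CDH2 and CDH3 in both comparisons with the dual-resistant library. Between the erlotinib-resistant and vehicle libraries, CTNNB1 (-0.75) and CTNND1 (0.57) differed more than these cadherins (0.10 to 0.17). CTNNA1 (0.12) lay among them there. Plakoglobin (JUP), shared with adherens junctions, was counted with the desmosome, and was 3.34-fold lower in the dual-resistant than in the erlotinib-resistant library. CTNNA1 (alpha-catenin) stood at 167, 181 and 109 FPKM and was within the limit throughout. CTNNB1 (beta-catenin, also a transducer of WNT signals) stood at 197, 117 and 88.3 FPKM, 2.21-fold lower in dual-resistant cells than in vehicle and within the limit in both steps. That call was lost when the libraries were brought to a common sum (-0.88). CTNND1 (p120-catenin) stood at 92.9, 138 and 67.3 FPKM, 2.04-fold lower in the dual-resistant than in the erlotinib-resistant library. A read-through row of the table that spans CTNND1 was listed at 0 in the first 2 libraries and at 12.0 FPKM in the dual-resistant library, and with it added the difference was -0.79 and the call was lost. Without JUP, the 3 catenins summed to 457, 436 and 265 FPKM. Their sum was 1.65-fold lower in the dual-resistant than in the erlotinib-resistant library, where the 3 cadherins summed to 5.60-fold less.

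Other junction genes, from 5 lists of 81 symbols (further claudins, tight junction and polarity genes, desmosomal genes, cadherins, and catenins with nectins), were called in both directions. Of the 43 compared, 8 (18.6%) were lower and 12 (27.9%) higher in the dual-resistant than in the erlotinib-resistant library, against 7.22% and 10.1% of all genes, with a median of 0.25. In the erlotinib-resistant library against vehicle 4 (9.30%) were higher and 3 (6.98%) lower, against 3.81% and 6.03% of all genes. In the dual-resistant library against vehicle 12 (27.9%) were higher and 5 (11.6%) lower, against 11.0% and 10.4% of all genes. The lower shares in these 2 comparisons were near those of all genes. Further claudins lower in the dual-resistant than in the erlotinib-resistant library were CLDN9, at 3.40, 2.70 and 0.534 FPKM, and CLDN15, at 4.34, 7.68 and 3.18 FPKM. LSR, which recruits tricellulin to the corners of cells, stood at 198, 89.7 and 29.6 FPKM and was lower at each step. PVRL4 (now NECTIN4), an adhesion molecule of epithelial tumours, stood at 12.2, 6.96 and 0.534 FPKM.

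Some of these other genes were high in the dual-resistant library. CDH6, a cadherin of the kidney, stood at 0.00511, 0.0454 and 6.39 FPKM and ILDR2, a relative of LSR, at 0.00545, 0.0445 and 5.32 FPKM. Both passed the filter through that library alone, which fixed their direction. PARD6G, a paralogue of PARD6B, stood at 0.975, 1.35 and 5.16 FPKM, PVRL3 (now NECTIN3) at 1.301, 2.70 and 8.74 FPKM and KAZN (kazrin, a partner of periplakin) at 1.71, 1.13 and 4.71 FPKM. AMOT (angiomotin), which binds polarity proteins, was low in the erlotinib-resistant library alone, at 5.41, 0.179 and 4.49 FPKM, and so was the catenin ARVCF, at 9.46, 3.54 and 9.31 FPKM.

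Gap junctions are the channels between coupled cells, and their connexin genes differed in both directions between the dual-resistant and the erlotinib-resistant library. The epithelial connexin gene GJB2 stood at 13.3, 13.5 and 2.82 FPKM, and GJD3 at 13.9, 12.6 and 4.52 FPKM over its 2 rows, both called lower in the dual-resistant library. GJA1 (connexin 43), the most widespread connexin, stood at 8.23, 3.29 and 49.4 FPKM, was called higher there, and was the highest of these 3 in the dual-resistant library.

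Regulators known to act on junction genes were listed beside them. Of the repressors, ZEB1 stood at 0.107, 0.295 and 5.98 FPKM and ZEB2 at 0.0429, 0.197 and 7.03 FPKM. Both passed the filter through the dual-resistant library alone, which fixed their direction. They were the 2 called higher of 6 such factors compared between the dual-resistant and erlotinib-resistant libraries, where 10.1% of all genes were higher. The others were within the limit there. SNAI2 stood at 1.08, 12.2 and 20.6 FPKM and was higher in both resistant libraries than in vehicle. SNAI1 was low in the dual-resistant library, at 3.14, 2.45 and 0.832 FPKM. Of 9 epithelial factors compared, 8 were lower in the dual-resistant than in the erlotinib-resistant library, against 7.22% of all genes, among them OVOL1, at 6.23, 5.12 and 0.284 FPKM, OVOL2, at 9.52, 8.75 and 1.35 FPKM, and GRHL1, at 7.78, 6.40 and 2.16 FPKM. The part of any of these regulators in the junction genes was not tested.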

How the data were processed

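RNA sequencing of 3 populations, 1 library each, was read from 1 table. The authors deposited FPKM values, which come from TopHat 1.3 and Cufflinks 1.3 on GRCh37 per the submitters' processing notes. Gene set, strandedness and settings: not given in the sources used here. Rows that share a symbol were summed, a gene was compared if any library had 1 FPKM or more, and log2 differences of FPKM + 1 were called at a limit of 1. The calling script was checked on simulated data. With 1 library per group no test was possible. The worth of 1 fragment was taken as percentile 1 of FPKM times length over single-exon coding genes of 1 to 5 kb (GENCODE 29, matched by symbol), and fragments of a gene were estimated on its longest GENCODE transcript. Start positions were taken to count from 0 and are given from 1. Promoter windows came from RefSeq on GRCh38.p14, another build than the table's. Per the naming rule, any of the 41 genes could be named, with the cell type markers and up to 4 genes per further list. The called regulators could be named too, and some of them are given by count alone. The count over the further list of gap junction genes is not reported here. Members and lists were chosen with earlier results of these data known. Alternatives were other pseudocounts, filters, scalings, limits and ways to join rows. Analysis used Python 3.11.15 and pandas 2.3.3.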

Additional observations from a re-analysis of the deposited data

How the results depend on the processing

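No gene of the 41 that was called turned its direction under any of 9 alternatives or the 1 added after the values were seen (adding the CTNND1 read-through row). Most of these could not have turned one. Other pseudocounts, filters and limits keep the order of 2 values, and each of the 41 genes had 1 row. Only the scalings and the added row could turn a direction, so its keeping says little. With a limit of 2 on the log2 scale, the genes lower in the dual-resistant than in the erlotinib-resistant library numbered 5 in place of 16, against 1.88% of all genes. In the dual-resistant library against vehicle 6 were lower in place of 15 and 2 higher in place of 4. In the erlotinib-resistant library against vehicle, 0 were higher with that limit in place of 1. For these other comparisons, and for other pseudocounts and scalings, no share of all genes was taken. Their counts show how calls moved and cannot be set against all genes. With a pseudocount of 5 FPKM, 2 were higher in the dual-resistant library against vehicle in place of 4 (TJP1 at 0.95 and CGNL1 at 0.59 were lost), and 0 in the erlotinib-resistant library against vehicle. It also took the lower genes from 16 to 13 in the dual-resistant against the erlotinib-resistant library (CLDN3 at -0.99, MARVELD2 at -0.77 and CTNND1 at -0.99 were lost) and from 15 to 13 against vehicle (PPL at -0.91 and EVPL at -0.70). With a pseudocount of 0.1 FPKM, 2 were higher (CGNL1 and CLDN2) and 2 lower (CLDN23 and DSC3) in the erlotinib-resistant library against vehicle, in place of 1 and 0. That pseudocount also took the lower genes from 16 to 17 in the dual-resistant against the erlotinib-resistant library (EVPL at -1.09 was added). Bringing the libraries to a common sum moved the median of all genes to 0.14, 0.05 and 0.22 in the erlotinib-resistant against vehicle, dual-resistant against erlotinib-resistant and dual-resistant against vehicle comparisons, and took CTNND1 (-0.93 in the dual-resistant against the erlotinib-resistant library), CTNNB1 and EVPL (-0.88 and -0.83 in the dual-resistant library against vehicle) within the limit. No paired analysis was possible because each group has 1 library and no result comes from a test. Values under 0.1 FPKM rest on few fragments and their order was not read.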
